A study of Rattus norvegicus with 12 samples.

Results

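The 9 genes described here carry glucose into the cell and break it down by glycolysis, and they were chosen by name, in a fixed list of Ensembl identifiers, from the 32883 genes of the deposited count table. They are Gapdh (ENSRNOG00000018630), Eno1 (ENSRNOG00000017895), Pkm (ENSRNOG00000011329), Ldha (ENSRNOG00000013009), Tpi1 (ENSRNOG00000015290), Pgk1 (ENSRNOG00000058249), Hk2 (ENSRNOG00000006116), Slc2a1 (ENSRNOG00000007284) and Slc2a4 (ENSRNOG00000017226). The symbols come with that list, because the table itself holds identifiers only, and the pairing was not checked against another table. All 9 identifiers were in the table, and 7 of the 9 had enough counts to enter the tests, as did 10491 genes in all.

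RNA came from ventricular cardiomyocytes of newborn Wistar rats aged 1 to 2 days, isolated by trypsin digestion and a density gradient. The groups were the Cpeb4 immunoprecipitate (IP) and the total RNA input of cells given phenylephrine (PE) for 24 h, and the IP and the input of mock-treated cells, with 3 libraries in each. PE is an agonist of alpha-1 adrenergic receptors that makes cultured cardiomyocytes grow, and Cpeb4 is an RNA-binding protein that controls polyadenylation and translation of messenger RNAs in the cytoplasm. No precipitate made with a control antibody was analysed here, so the antibody, the beads and Cpeb4 cannot be told apart as sources of a difference between IP and input. The labels name no sort of the cells, and markers of cardiomyocytes and other cell types were not analysed here because the reference table pairs none of these identifiers with a symbol. In such bulk RNA, fewer cells of a type and less RNA per cell cannot be told apart.

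Glucose enters a cell through transporters of the Slc2a family. Slc2a1 (GLUT1) serves basal uptake and prevails in the fetal heart, whereas Slc2a4 (GLUT4), which insulin moves to the cell surface, prevails in adult heart and skeletal muscle. Hexokinase then traps glucose in the cell as glucose 6-phosphate, and the enzymes of lower glycolysis convert the products to pyruvate with a gain of ATP. The newborn heart still relies strongly on this route, and the adult heart relies mainly on fatty acid oxidation.

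Library totals ranged from 1423334 counts in mock input replicate 3 to 30216559 in PE IP replicate 1. The 3 libraries that stood apart from the others were PE input replicate 1, mock IP replicate 2 and mock input replicate 2. Of 5492 genes with a median of at least 10 CPM (counts relative to the library total, corrected by TMM factors that equalise most genes between libraries), they had 0 counts for 3.19%, 6.79% and 3.10%, against 0.528% at most in the other 9. Nothing in the labels says whether replicates were separate cultures, so each p-value here reflects spread among libraries that may be technical. The libraries read transcripts near the 3′ end, whatever their length, so counts were not divided by length.

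Over both treatments, the largest log2 fold change between IP and input among the 7 tested genes was that of Hk2, which encodes hexokinase 2, the isoform of the first glycolytic step found in muscle and other insulin-responsive tissues. Its level was 88.0, 61.2 and 21.7 CPM in PE IP replicates 1, 2 and 3, against 32.7, 1.89 and 10.1 CPM in PE input. It was 56.0, 119 and 69.2 CPM in mock IP, against 5.80, 40.4 and 1.35 CPM in mock input. All 3 mock IP libraries lay above all 3 mock inputs, while in PE cells IP replicate 3 lay below input replicate 1. The IP library lay above the input of the same treatment and number in 6 of 6 cases, though the labels do not say that a number marks a shared culture. Among the other 8 genes this number ran from 1 of 6 for Gapdh and Tpi1 to 5 of 6 for Ldha. How many of all genes lay above in all 6 cases was not counted. Group means of Hk2 were 56.9 ± 33.4 CPM in PE IP and 14.9 ± 16.0 CPM in PE input, and 81.5 ± 33.5 CPM in mock IP and 15.9 ± 21.4 CPM in mock input (SD, n = 3 each).

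In edgeR's quasi-likelihood test, Hk2 did not pass the threshold of an adjusted p under 0.05 in any comparison. The log2 fold change of IP against input was 1.93 in PE cells (SE 1.01, edgeR adjusted p = 0.517) and 2.28 in mock cells (SE 1.03, edgeR adjusted p = 0.440). Averaged over both treatments it was 2.11 (SE 0.72, 95% interval 0.55 to 3.66), with an unadjusted p of 0.0116 and an edgeR adjusted p of 0.119. Of the 7 tested genes, 0 passed in PE cells, where 2.11% of all genes passed in either direction, 0 passed in mock cells, where 0.743% did, and 0 passed over both treatments, where 5.88% did. With the replicate number as a block, the 17 higher and 61 lower genes behind the share in mock cells became 95 higher and 177 lower, and still 0 of 7 passed there. Over both treatments the block made Hk2 pass, with a log2 fold change of 2.66 (edgeR adjusted p = 0.0195). Deviations of same-number IP and input libraries from their group means correlated at r 0.11 to 0.24 in mock cells and 0.02 to 0.20 in PE cells. Between libraries of different number r was -0.20 to 0.12 in mock cells and -0.26 to 0.18 in PE cells. Deviations within a group sum to 0, so these values are not independent. At an unadjusted edgeR p under 0.05 the counts were 0, 1 and 1 of 7, and the 1 gene was Hk2. Of all genes, 11.7%, 10.8% and 18.4% were under it. The DESeq2 Wald test called 0, 0 and 1, again Hk2. Among all 10491 genes it called 200 higher and 383 lower in PE cells, and 126 and 281 in mock cells. Over both treatments it called 493 higher and 605 lower.

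The 2 highest Hk2 inputs were mock input replicate 2 and PE input replicate 1, which are among the libraries with many genes at 0. So is mock IP replicate 2, which held the highest Hk2 level of all, 119 CPM. The other 4 inputs lay between 1.35 and 10.1 CPM and all 6 precipitates between 21.7 and 119 CPM. Without mock input replicate 2, the log2 fold change over both treatments was 3.11 and passed (edgeR adjusted p = 0.0163). With IP and input both left out for mock replicate 2 and for PE replicate 1, it was 3.23 (SE 0.53, edgeR adjusted p = 0.000576). The 4 left out include PE IP replicate 1, which did not stand apart, with 0.328% of genes at 0. They held the 2 highest Hk2 inputs (40.4 and 32.7 CPM) and the 2 highest precipitates (119 and 88.0 CPM). This set was chosen with earlier results known, so the p-values of this fit are a description only. In that fit the Hk2 value was 2.67 in PE cells and 3.79 in mock cells, and both passed (edgeR adjusted p = 0.0249 and 0.0110). Over both treatments the value stayed positive under all 19 alternatives, between 1.85 and 3.43, and passed under 7 of them, with adjusted p from 3.48e-05 to 0.286. Those 7 include the fits above without mock input replicate 2 and without the 4 libraries. They also include library totals, where the median of all genes was itself 1.31. The lowest adjusted p came from edgeR without a filter on low counts, where the SE was 0.43. In PE cells alone the Hk2 value was 3.17 without PE input replicate 1, and in mock cells alone 4.28 without mock input replicate 2, and neither passed (edgeR adjusted p = 0.253 and 0.108). Leaving out mock IP replicate 2 lowered the value to 1.91 over both treatments and 1.89 in mock cells. Neither of these passed (edgeR adjusted p = 0.220 and 0.711). The part of these libraries in the result beyond these values was not tested.

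**Figure D1:**
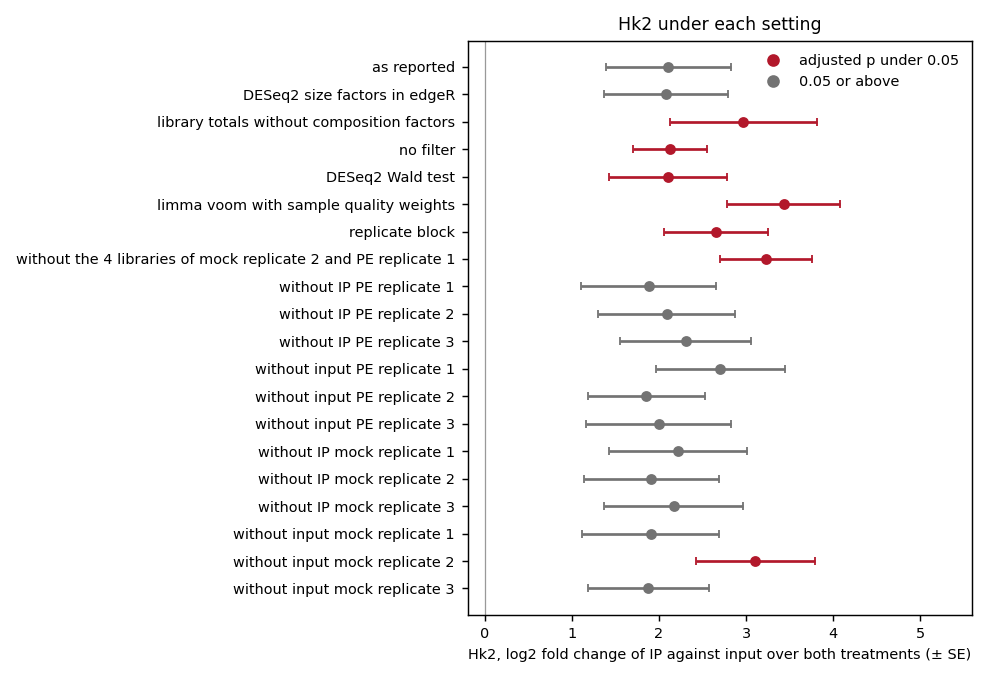
Log2 fold change of Hk2 in IP against input, averaged over PE and mock cells (x axis), as reported and under each alternative (y axis); bars are ± SE, and red marks an adjusted p under 0.05. All values lie to the right of 0, and 7 of the 19 alternatives pass, while the value as reported does not.

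Some Hk2 input levels rested on few counts. Mock input replicate 3, the shallowest library, held 1 Hk2 count, whose exact 95% Poisson interval reached 7.50 CPM, and PE input replicate 2 held 7 counts, with an interval of 0.758 to 3.89 CPM. Such intervals cover counting error only, because reads without molecular identifiers are not independent molecules. Rank within a library needs no scaling. Ordered from the most counted gene, Hk2 stood between place 949 and place 3980 in the 6 precipitates and between place 2372 and place 9112 in the 6 inputs, so the ranges overlapped.

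Ldha, which encodes the lactate dehydrogenase A subunit that reduces pyruvate to lactate, varied least of the 9 genes. It stood at 184, 169 and 197 CPM in PE IP, against 147, 152 and 164 CPM in PE input. In mock cells it stood at 185, 131 and 138 CPM in IP, against 160, 132 and 133 CPM in input. All 12 values thus lay between 131 and 197 CPM, with a coefficient of variation of 14.4%, against 88.7% for Hk2. The 3 PE precipitates lay above the 3 PE inputs, by a log2 fold change of 0.25 that did not pass (SE 0.29, 95% interval -0.36 to 0.86, edgeR adjusted p = 0.912). Ldha was the 1 gene of the 7 tested without overlap in PE cells, where 22.2% of all genes had none, and Hk2 was the 1 of 7 in mock cells, where 17.9% had none.

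The ratio of Hk2 to Ldha counts within a library does not depend on scaling, and Ldha was chosen as the denominator after its values were seen. It was 0.477, 0.362 and 0.110 in PE IP, against 0.223, 0.0124 and 0.0615 in PE input. In mock cells it was 0.302, 0.911 and 0.502 in IP, against 0.0361, 0.306 and 0.0101 in input. PE input replicate 1 and mock input replicate 2 had the highest input ratios, and every other input lay below every precipitate. These 2 inputs were set aside with the values known, so that separation is a description only. The highest ratio, 0.911, was that of mock IP replicate 2, which also had many genes at 0.

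**Figure D2:**
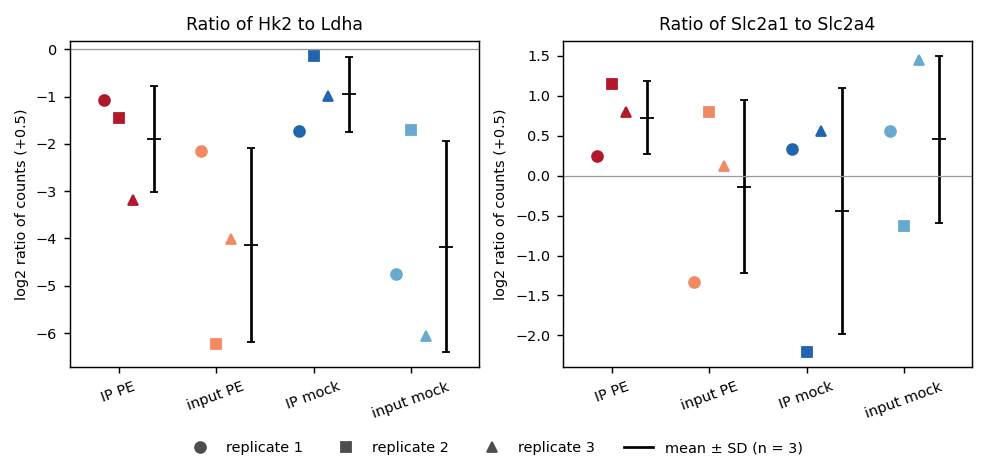
Log2 ratio of counts of Hk2 to Ldha (left) and of Slc2a1 to Slc2a4 (right), each count raised by 0.5, in the 3 libraries of each group; marker shape gives the replicate number and the black bar the mean ± SD. The Hk2 ratio is high in the precipitates, in PE input replicate 1 and in mock input replicate 2, and the transporter ratio is below 0 in PE input replicate 1, mock IP replicate 2 and mock input replicate 2.

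Hk2, with that largest difference, and Ldha, with the steadiest level, are shown here with their RefSeq promoters on the GRCr8 assembly (250 bases before to 50 after the start), since hypoxia-inducible factor is a well known activator of glycolytic genes. Capitals mark ACGTG and GCGTG, core letters of the hypoxia response element, on either strand; the palindrome in Ldha counts on both strands. The Hk2 window lies at chr4:116841226-116841525 on the minus strand and the Ldha window at chr1:106507842-106508141 on the plus strand.
Hk2: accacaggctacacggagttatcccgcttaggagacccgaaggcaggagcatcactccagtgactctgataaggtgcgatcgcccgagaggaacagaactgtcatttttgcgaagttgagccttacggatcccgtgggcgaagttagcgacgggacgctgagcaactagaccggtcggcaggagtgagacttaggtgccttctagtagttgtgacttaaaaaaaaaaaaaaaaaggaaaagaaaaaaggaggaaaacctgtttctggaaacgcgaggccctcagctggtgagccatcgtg
Ldha: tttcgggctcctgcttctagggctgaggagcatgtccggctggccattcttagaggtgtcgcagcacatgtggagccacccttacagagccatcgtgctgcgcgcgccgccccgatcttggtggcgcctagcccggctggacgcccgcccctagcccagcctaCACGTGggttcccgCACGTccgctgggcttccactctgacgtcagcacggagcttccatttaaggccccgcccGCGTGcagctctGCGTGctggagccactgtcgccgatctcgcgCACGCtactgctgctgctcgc
The Ldha window held 3 matches of ACGTG and 3 of GCGTG, and the Hk2 window held 0 of either, which says only that these letters are not in this window. Of the 7 genes with a promoter in the table, 4 had at least 1 match (Gapdh, Eno1, Ldha and Slc2a1), and 41.6% of all 33469 promoters did, with ACGTG in 19.3% and GCGTG in 29.7%. A match is not a measured binding site. Cytoplasmic polyadenylation elements lie in 3′ untranslated regions, which were not analysed here.

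Among the enzymes of lower glycolysis, Eno1 and Pgk1 were the most counted of the 9 genes. Eno1 encodes enolase 1, which makes phosphoenolpyruvate. Its level was 474, 208 and 327 CPM in PE IP, against 706, 299 and 527 CPM in PE input. In mock cells it was 442, 317 and 603 CPM in IP, against 358, 558 and 326 CPM in input. IP and input overlapped in both treatments, and its log2 fold change between IP and input was -0.60 in PE cells (SE 0.39, edgeR adjusted p = 0.661) and 0.13 in mock cells (SE 0.39, edgeR adjusted p = 0.985).

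Pgk1 encodes phosphoglycerate kinase 1, which makes ATP in the step after Gapdh. Its level was 214, 455 and 330 CPM in PE IP, against 350, 327 and 265 CPM in PE input, and 435, 238 and 387 CPM in mock IP, against 394, 429 and 408 CPM in mock input. Inputs of each treatment lay close together, and precipitates spread on both sides of them. The log2 fold change of IP against input over both treatments was -0.07 (95% interval -0.55 to 0.42, edgeR adjusted p = 0.949). For Ldha that value was 0.17 (95% interval -0.26 to 0.61, edgeR adjusted p = 0.781), and for Eno1 it was -0.23 (95% interval -0.82 to 0.35, edgeR adjusted p = 0.773).

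Slc2a1 and Slc2a4 stood at similar levels. Slc2a1 had 96.0, 50.5 and 82.8 CPM in PE IP, against 26.1, 49.3 and 64.2 CPM in PE input. In mock cells it had 74.3, 22.8 and 77.9 CPM in IP, against 85.5, 58.2 and 96.9 CPM in input. The groups overlapped in each treatment. The log2 fold change of IP against input was 0.72 in PE cells (SE 0.49, edgeR adjusted p = 0.692) and -0.45 in mock cells (SE 0.49, edgeR adjusted p = 0.871), and the difference between these, 1.17, did not pass (SE 0.69, 95% interval -0.29 to 2.63, edgeR adjusted p = 1.00). With mock replicate 2 and PE replicate 1 left out of both RNA pools (4 libraries), the value for Slc2a1 was 0.19 in PE cells and -0.29 in mock cells, and the difference was 0.48. Leaving out mock IP replicate 2 alone gave -0.07 in mock cells, and leaving out PE input replicate 1 alone gave 0.42 in PE cells.

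Slc2a4 had 81.2, 22.7 and 47.8 CPM in PE IP, against 65.7, 28.3 and 59.2 CPM in PE input. In mock cells it had 58.9, 105 and 53.0 CPM in IP, against 58.2, 90.4 and 35.0 CPM in input. Both pairs of groups overlapped, and the log2 fold change of IP against input over both treatments was 0.11 (95% interval -0.66 to 0.88, edgeR adjusted p = 0.943). For Slc2a1 it was 0.13 (95% interval -0.60 to 0.86, edgeR adjusted p = 0.923).

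Within libraries, Slc2a1 counts exceeded Slc2a4 counts in all but the 3 libraries with many genes at 0. The ratio was 1.18, 2.22 and 1.73 in PE IP, against 0.397, 1.74 and 1.09 in PE input. It was 1.26, 0.216 and 1.47 in mock IP, against 1.47, 0.644 and 2.77 in mock input. The 3 values below 1 were those of PE input replicate 1, mock IP replicate 2 and mock input replicate 2. The same 3 libraries held 0 Pkm counts, as did mock input replicate 3, the shallowest library. Of the 3, the 2 inputs held the highest Hk2 inputs and mock IP replicate 2 the highest Hk2 precipitate. This was noticed after the values were seen, and the part of these libraries in it was not tested.

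The remaining 3 rows, Gapdh, Pkm and Tpi1, were nearly empty, although their enzymes belong to glycolysis in every cell and Gapdh is a common reference gene. Tpi1, for triosephosphate isomerase, had 3 counts in all, in mock IP replicate 1. Gapdh, for the dehydrogenase that follows it in the pathway, had 169 counts over 12 libraries. These were 7, 0 and 1 in PE IP, against 7, 10 and 22 in PE input, and 1, 11 and 106 in mock IP, against 2, 2 and 0 in mock input. A single precipitate, mock IP replicate 3, thus held most of them, and in CPM the 3 PE precipitates, at 0 to 0.15, lay below the 3 PE inputs, at 1.31 and above. Pkm, for the muscle type pyruvate kinase, had 635 counts, and 4 of 12 libraries had none. They were 217, 1 and 69 in PE IP, against 0, 55 and 118 in PE input, and 55, 0 and 99 in mock IP, against 21, 0 and 0 in mock input.

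Gapdh and Tpi1 did not pass the filter on low counts. Where counts are 0, the floor of 3 counts over a group allowed Tpi1 up to 0.0507 CPM in PE IP, 0.118 CPM in PE input and 0.324 CPM in mock input. In the fit without a filter, the log2 fold change of Gapdh in IP against input was -4.03 in PE cells (SE 3.51) and 2.35 in mock cells (SE 3.35), neither of which passed (edgeR adjusted p = 0.745 and 0.939). Pkm was tested, and its log2 fold changes of -0.69 in PE cells and 1.15 in mock cells had SE of 2.16 and 2.21. Their intervals of -5.25 to 3.87 and -3.52 to 5.83 take in large differences in either direction. Without PE input replicate 2 the Pkm value in PE cells was 0.34. Without mock input replicate 1, the 1 mock input with Pkm counts, the value in mock cells was 8.74, outside that interval, and such a fitted value against inputs at 0 depends on the prior count.

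Copies of these genes are common in the rat genome, and reads that fit several places may be lost or split when they are counted. In RefSeq on the GRCr8 assembly, 81 entries carry a pseudogene name of Gapdh, 31 of Eno1, 30 of Ldha, 19 of Pkm, 8 of Pgk1 and 3 of Tpi1. For Hk2, Slc2a1 and Slc2a4 there are 0. By type, 79 of the Gapdh and 30 of the Eno1 entries are pseudogenes. The deposited counts rest on another build, Rnor_6.0. The treatment of such reads during counting is unknown. The levels of Gapdh, Eno1, Ldha, Pkm, Pgk1 and Tpi1 are therefore uncertain as levels of the transcripts, and the numbers of entries do not grade that uncertainty. Over all libraries, Gapdh, with 81 entries, had 169 counts, Eno1, with 31, had 67973, and Tpi1, with 3, had 3. The part of copies in the low counts was not tested.

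**Figure D3:**
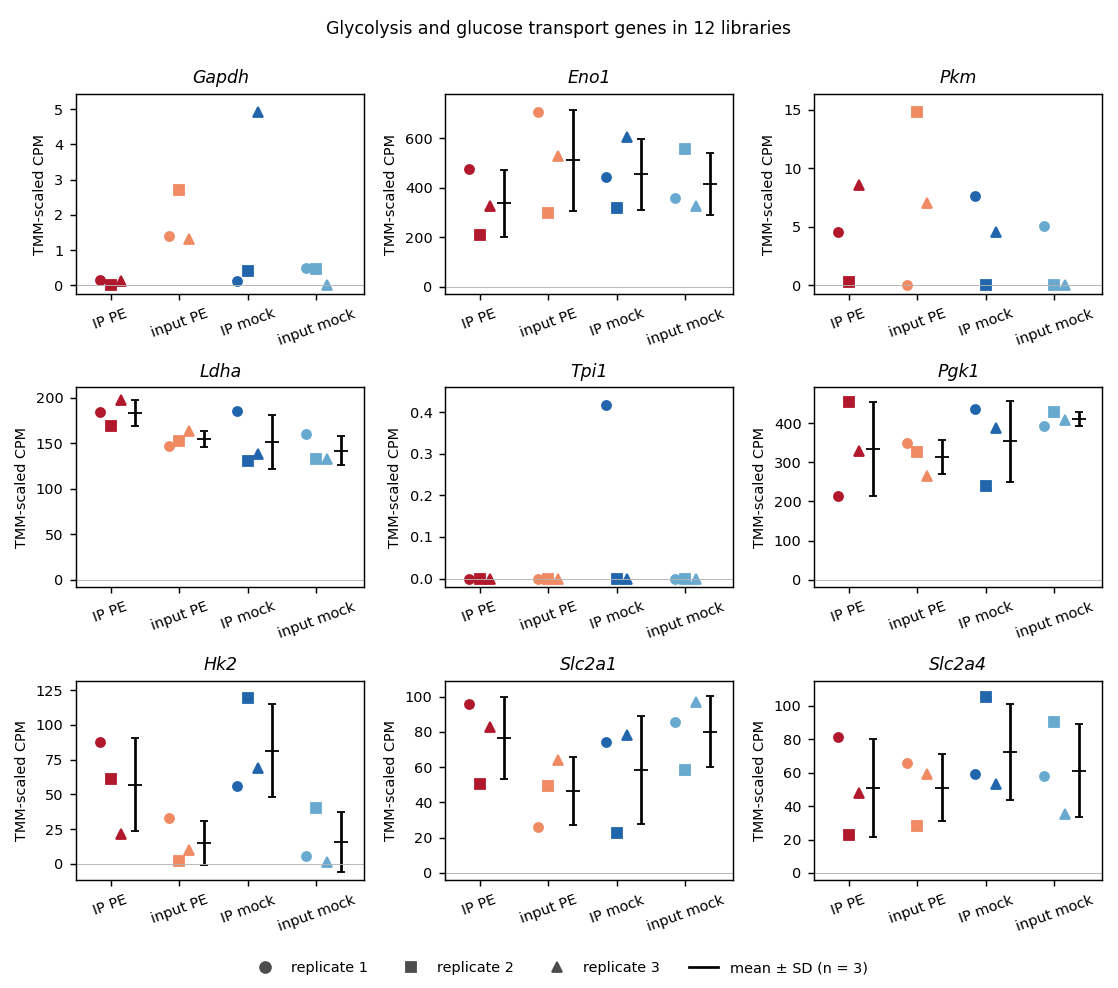
Level of each of the 9 genes in TMM-scaled CPM (y axis, linear, own range in each panel) in the 3 libraries of each group (x axis); marker shape gives the replicate number and black bars the mean ± SD, left out for the nearly empty rows. Hk2 has its highest group means in the precipitates, Ldha lies between 131 and 197 CPM throughout, and Gapdh, Pkm and Tpi1 stay under 15 CPM.

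PE changed none of the 7 tested genes past the threshold. In input 0 of 7 passed, where 0.00953% of all genes did, and in IP 0 of 7 passed, also against 0.00953%. At an unadjusted p under 0.05 the counts were 0 and 0 by edgeR, where 3.57% of all genes in input and 5.54% in IP were under it. DESeq2 called 0 and 0 of the 7. Among all 10491 genes it called 18 higher and 3 lower in input, and 28 and 13 in IP. For the difference of IP enrichment between PE and mock cells 0 of 7 passed, against 0% of all genes. At an unadjusted edgeR p under 0.05 the count was 0 of 7, against 2.58% of all genes. DESeq2 called 0 of 7 there, and 0 higher and 2 lower among all genes.

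Intervals show what such tests could miss. In input, the log2 fold change of PE against mock was 0.12 for Ldha (95% interval -0.50 to 0.74), 0.30 for Eno1 (-0.52 to 1.13), -0.39 for Pgk1 (-1.08 to 0.30), -0.17 for Hk2 (-2.30 to 1.97), -0.78 for Slc2a1 (-1.81 to 0.26) and -0.27 for Slc2a4 (-1.36 to 0.82). Pgk1 was the 1 gene of 7 whose 3 PE inputs, at 265 to 350 CPM, lay apart from the 3 mock inputs, at 394 to 429 CPM, and 9.85% of all genes had no overlap there. Slc2a1 averaged 46.5 ± 19.2 CPM in PE input and 80.2 ± 19.9 CPM in mock input (SD, n = 3 each), with PE input replicate 3 above mock input replicate 2. For Hk2 in input, single libraries set the sign and size, since the value was 1.83 without mock input replicate 2 and -1.45 without PE input replicate 1. It was also above 0 without PE input replicate 2, at 0.35, and without PE input replicate 3, at 0.05, and none of these values passed (edgeR adjusted p = 1.00).

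In IP, the log2 fold change of PE against mock was 0.28 for Ldha (95% interval -0.34 to 0.89), -0.43 for Eno1 (-1.26 to 0.39), -0.09 for Pgk1 (-0.77 to 0.60), -0.52 for Hk2 (-2.61 to 1.58), 0.39 for Slc2a1 (-0.63 to 1.42) and -0.51 for Slc2a4 (-1.60 to 0.57). Here 0 of 7 genes lay apart, against 14.9% of all genes. The intervals of Ldha and Pgk1 are the narrowest of the 7 in both RNA pools, and that of Pkm is the widest, from -4.39 to 4.69 in IP and from -2.78 to 6.77 in input.

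**Figure D4:**
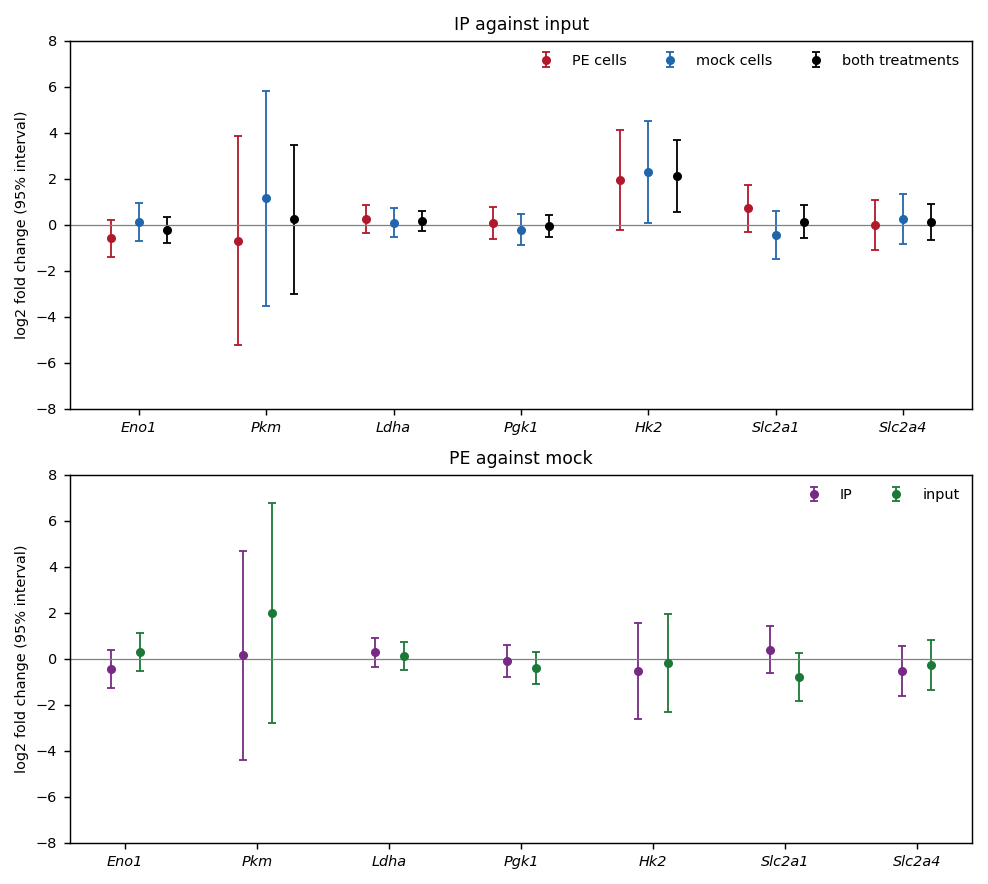
Log2 fold change with its 95% interval for the 7 tested genes, for IP against input (top, in PE cells, mock cells and over both) and for PE against mock (bottom, in IP and input). In the top panel the Hk2 intervals over both treatments, 0.55 to 3.66, and in mock cells, 0.07 to 4.50, lie above 0 before adjustment over all genes, and all intervals of the bottom panel include 0.

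Differences between IP and input hold relative to the scaling. Over both treatments, the log2 fold change of the median gene was 0.16 with TMM factors and 1.31 with library totals. For the 7 genes the TMM median was 0.13, with 5 of 7 above 0, where 56.9% of all genes were above 0. Library totals gave 2823 genes higher and 65 lower, against 237 and 380 with TMM factors. Relative to the median of all genes, Hk2 stood at 1.95 with TMM factors and 1.66 with library totals, Ldha at 0.01 and 0.01, and Eno1 at -0.40 and -0.49. As a plain share of library counts, the 9 genes held 0.163% ± 0.0168 in PE IP and 0.0842% ± 0.0372 in PE input, and 0.168% ± 0.0274 in mock IP and 0.0731% ± 0.0363 in mock input (SD, n = 3 each). The 6 precipitates, at 0.136% to 0.186%, lay above the 6 inputs, at 0.0521% to 0.127%. With the 10 most abundant features left out of the total, the shares were 0.145% to 0.228% in the precipitates and 0.111% to 0.173% in the inputs, and overlapped.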

How the data were processed

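RNA from 3 IP and 3 input libraries each of PE and mock cells was read with a 3′ end kit from 200 ng of RNA. The authors deposited raw counts per Ensembl gene, without scaling. Tools listed in the submitters' processing notes are DESeq2, featureCounts 1.6.4, STAR 2.7 and cutadapt 2.5, with the Rnor_6.0 build; their options are not stated. Totals ran from 1423334 to 30216559 counts.

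Of 65766 lines, 32883 were blank and skipped. Columns were matched to samples by type, treatment and number. In edgeR 4.0.16 (R 4.3.3), 1 fit of 4 group means used TMM factors, filterByExpr (10491 genes), robust quasi-likelihood F-tests and Benjamini-Hochberg adjustment over all genes, with a threshold of 0.05. SE is the log2 fold change divided by the square root of F, and 95% intervals use the test's degrees of freedom. Alternatives included DESeq2 1.42.0 and limma 3.58.1 voom. The steps were tested on simulated data. Within groups, no 2 libraries agreed within sampling noise (lowest chi-square per degree of freedom 7.79 over 12 pairs).

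The fit has no replicate block, because the labels do not say that a number marks a shared culture or day. The count columns of same-number IP and input libraries do share a letter. Deviations of such libraries from their group means correlated at r 0.11 to 0.24 in mock cells and 0.02 to 0.20 in PE cells. For different numbers r was -0.20 to 0.12 and -0.26 to 0.18. The choice matters for Hk2, which passed over both treatments with the block (edgeR adjusted p = 0.0195). The genes, lists and alternatives were chosen with earlier results of these data known. All 9 genes are named whatever their values. A list of other pathway genes and a list of cell type markers were fixed by symbol and not used here, since 0 of the 47357 RefSeq genes carried an Ensembl identifier.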

Additional observations from a re-analysis of the deposited data

How the results depend on the processing

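Of the 7 tested genes, 0 passed as reported and 0 were called lower under any alternative; the counts called higher follow. For IP against input in PE cells, library totals gave 2, no filter 1, and leaving out both libraries each of mock replicate 2 and PE replicate 1 gave 1. In mock cells these gave 1, 1 and 1, and voom 1. Over both treatments library totals gave 4, and no filter, the DESeq2 Wald test, voom, the replicate block and leaving out those 4 libraries gave 1 each, while leaving out single libraries gave 0 to 1. The gene called was Hk2, except under library totals, which called Ldha and Slc2a1 in PE cells, Ldha in mock cells, and both with Hk2 and Pgk1 over both treatments. Pgk1 there changed sign to 1.03 (edgeR adjusted p = 0.0185), by the construction of that scaling. With the replicate block Hk2 had a log2 fold change of 2.66 over both treatments (edgeR adjusted p = 0.0195), and the block changed no other call of the 7 genes. PE against mock, and the difference of IP enrichment, kept 0 of the 7 genes called under all alternatives run. Of 826 values of single genes under alternatives, 67 that passed in neither setting changed sign.

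Among all genes, higher and lower calls for IP against input in PE cells numbered 48 and 173 as reported, 641 and 24 with library totals, 158 and 265 without a filter, 200 and 383 by DESeq2, 236 and 362 by voom, 128 and 293 with the block, 352 and 623 without the 4 libraries, and 18 and 77 in a fit restricted to PE libraries. In mock cells, in that order of settings, they numbered 17 and 61 as reported, then 842 and 10, 156 and 191, 126 higher and 281 lower by DESeq2, 77 and 215 by voom, 95 and 177 with the block, 168 and 349, and 0 and 1 in a fit restricted to mock libraries. Over both treatments they numbered 237 and 380 as reported, then 2823 and 65, 411 and 491, 493 higher and 605 lower by DESeq2, 692 and 708 by voom, 347 and 512 with the block, and 673 and 863 without the 4 libraries. For PE against mock, 1 gene was higher and 0 lower in each RNA pool, whereas DESeq2 called 18 and 3 in input and 28 and 13 in IP. Leaving out single libraries moved the counts for IP against input as far as 3 and 63 in PE cells (without PE IP replicate 2), 0 and 3 in mock cells (without mock input replicate 1) and 111 and 270 over both (without PE IP replicate 2), so the shares of all genes called depend on single libraries.

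Leaving the 10 most abundant features out of the total moved the mean share of the 9 genes to 0.184% in PE IP, 0.136% in PE input, 0.199% in mock IP and 0.140% in mock input. Other causes were not tested. Hk2 in mock input replicate 3 rests on 1 count. The part of depth in the low counts of Gapdh, Pkm and Tpi1 was not tested, and the deepest library, PE IP replicate 1 with 30216559 counts, held 7, 217 and 0 of them.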
